A study of Mus musculus with 85 samples.

Results

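The miR-34 family was examined through its 3 listed 5p members, mmu-miR-34a-5p, mmu-miR-34b-5p and mmu-miR-34c-5p, which were 3 of the 1977 miRNA rows counted in the hearts. They were taken by name and not by their values. The hearts were those of female HMDP mice, that is, of the inbred strains in the Hybrid Mouse Diversity Panel. Each mouse was 16 weeks old, having eaten chow for 8 weeks and an HF/HS diet, rich in fat and sucrose, for the next 8 weeks. There were 85 libraries, 1 per heart, all of this one condition, so no diet or control comparison could be made. The strain of each library was not used here, so spread between libraries holds differences between strains, between animals and between library preparations, which cannot be told apart.

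The miR-34 family is best known as a set of direct transcriptional targets of the tumour suppressor p53, and its members repress genes of the cell cycle, survival and metabolism. A miRNA finds its targets mainly through the seed, the bases near its 5′ end, so members that share a seed share many predicted targets. In the heart, miR-34a is known for its rise with age and after injury, while miR-34b and miR-34c, which come from one shared transcript, are best known from multiciliated epithelium and testis.

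Mature sequences from RefSeq (GRCm38.p6) show what the rows have in common. The capitals mark bases 2 to 8, the seed, and the sequences set side by side all carry the seed of miR-34a-5p. miR-34c-5p and miR-449b, not printed here, are known as members of the same seed family.
mmu-miR-34a-5p: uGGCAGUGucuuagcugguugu
mmu-miR-34b-5p: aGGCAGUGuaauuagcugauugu
mmu-miR-449a-5p: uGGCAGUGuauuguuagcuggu
mmu-miR-449c-5p: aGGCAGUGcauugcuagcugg
After the seed the sequences do not line up position by position. Aligned at their 5′ ends, miR-34b-5p had the base of miR-34a-5p at 4 of the 14 positions that follow the seed, and miR-449a-5p at 7 of 14. That count allows no gap, so stretches that are alike but shifted count as mismatches. The 3′ parts of miR-34a-5p and miR-34b-5p are alike in this way, so the count does not show that they are unrelated.

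Mir34a lies on chr4:150068454-150068555, plus strand, in GRCm38 (ENSMUSG00000065493.1), and its last 17 bases overlap an exon of Gm37795, a transcript whose biotype is still to be determined. Mir34b (chr9:51103562-51103645, minus strand, ENSMUSG00000065492.1) and Mir34c (chr9:51103034-51103110, minus strand, ENSMUSG00000065587.1) lie 451 bases apart. Both fall within introns of Btg4, which is transcribed from the opposite strand. The hairpin of Mir34a is shown because its 2 arms, in capitals, were so unequal in the counts.
Mir34a hairpin: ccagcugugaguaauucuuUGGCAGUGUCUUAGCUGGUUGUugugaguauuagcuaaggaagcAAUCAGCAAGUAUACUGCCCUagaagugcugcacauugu

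Nearly all family reads were miR-34a-5p. It had 1082 counts in all and was found in 83 of the 85 libraries, which made it 61st of the 1977 rows by total counts. Its pooled level was 9.47 per 10000 counts (95% Wilson interval 8.93 to 10.1), and it was 1.79 times as high when the rows of miR-1 and miR-133 were left out of the total. The other members were close to the limit of these libraries, which held between 1457 and 30202 counts each (median 12248, 1142199 in all). miR-34c-5p had 45 counts in 32 libraries and miR-34b-5p had 15 counts in 13 libraries, and neither passed 3 counts in any library. Their pooled levels were 0.394 (0.295 to 0.527) and 0.131 (0.0796 to 0.217) per 10000 counts. Of the 1142 family counts, miR-34a-5p held 94.7% (93.3 to 95.9), miR-34c-5p 3.94% (2.96 to 5.23) and miR-34b-5p 1.31% (0.798 to 2.16). The intervals of the 3 pooled levels did not overlap, so over all libraries the order miR-34a-5p, miR-34c-5p, miR-34b-5p was beyond counting error. Intervals here and below cover counting error only, and molecules and amplified copies could not be told apart.

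The passenger arms were almost absent. The 3p arm of miR-34a had 1 count, so the 5p arm held 99.9% of the counts of its hairpin (99.48 to 99.98). The 3p arms of miR-34b and miR-34c had 0 of 1142199 counts, which allows a level of up to 0.0263 per 10000. Of the related miR-449 cluster, markers of multiciliated epithelium, miR-449a-5p had 10 counts in 10 libraries, and miR-449b and miR-449c-5p had 0 with the same limit. A level in whole heart does not tell fewer cells of a type from less RNA per cell.

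The libraries fell into 2 sets that the labels do not name, and these bear on every value of miR-34a-5p. The first principal component of the 51 most regularly counted rows, none of them a miR-34 row, held 75.01% of the variance. Splitting it by 2-means gave 58 libraries (set A) and 27 libraries (set B), the latter numbered 1 to 10, 15 to 18, 20 to 21 and 49 to 59. Library 14, the one library under 5000 counts, lay nearest to the other set. Median totals were 13260 counts in set A and 10989 in set B. Because library numbers rise with animal numbers, a difference in handling and a difference between strains cannot be told apart. Each pair of libraries was compared by chi-square, since near-equal counts can mark a repeat of one library. Over the 146 rows with at least 85 counts, 2 of the 3570 pairs did not differ at p of 0.05: libraries 2 and 7 (chi-square per df 1.17, 139 df, p = 0.0795) and libraries 22 and 38 (1.202, p = 0.0528). Over the 51 better counted rows 0 pairs were past that limit, and the closest was again libraries 2 and 7 (1.496, 50 df, p = 0.0132). The labels of both pairs name different animals, so the libraries were kept apart. Levels of miR-34a-5p were 12.6 and 30.2 per 10000 counts in libraries 2 and 7, and 2.519 and 5.225 in libraries 22 and 38. Leaving out libraries 2 and 22 gave a difference of miR-34a-5p between the sets of 1.17 on the log2 scale, as with all libraries.

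**Figure D1:**
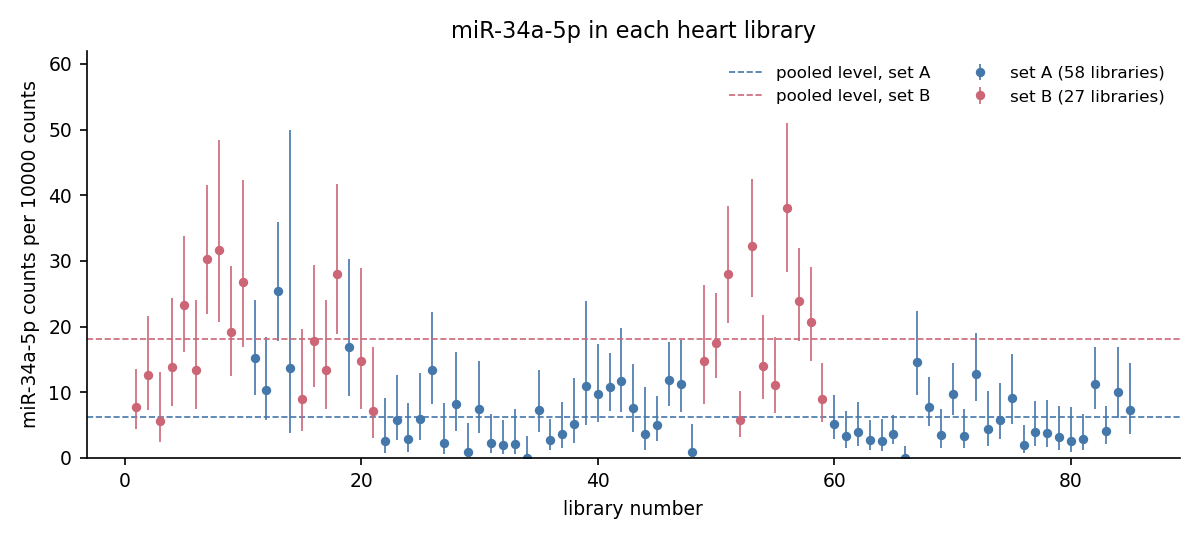
Level of miR-34a-5p in each of the 85 heart libraries, in counts per 10000 counts (vertical axis) against library number (horizontal axis). Points are libraries, bars are 95% Wilson intervals, colours are the 2 library sets, and dashed lines are the pooled levels of 6.27 (set A) and 18.1 (set B). The 10 highest levels are at library numbers up to 18 and from 51 to 57, and libraries 34 and 66 are at 0.

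The level of miR-34a-5p differed widely from heart to heart. Across the 85 libraries the lowest level was 0, the median was 7.77 and the highest was 37.99 per 10000 counts. The 90th percentile was 23.6 and the 10th was 2.40, a ratio of 9.88. The interval of 16 libraries lay wholly above the pooled level and that of 27 lay wholly below it, so 42 of the 85 could not be told from it.

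The 5 hearts with the highest level were all in set B. Library 56 had 44 of 11581 counts, or 37.99 per 10000 (28.3 to 50.96). Library 53 had 50 of 15496 counts, or 32.3 (24.5 to 42.5). Library 8 had 31.7 (20.7 to 48.4), library 7 had 30.2 (21.9 to 41.6) and library 18 had 28.1 (18.9 to 41.7). Their intervals overlapped, so the order within these 5 was not resolved, and library 51, the next, had the same rounded level of 28.1. With TMM library sizes the same 5 hearts were highest, and with DESeq2 size factors 3 of them were. Library 56 was highest with each of the 5 denominators tried.

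The 5 hearts with the lowest level were all in set A. Library 66 had 0 of 21172 counts and library 34 had 0 of 11760, which allows levels of up to 1.42 and 2.55 per 10000. Library 48 had 1 of 11067 counts (0.904, 0.160 to 5.12), library 29 had 1 of 10542 (0.949, 0.168 to 5.37) and library 32 had 3 of 15469 (1.94, 0.660 to 5.70). Library 66, picked out after its values were seen, held 3 counts of miR-34c-5p, the most of any library together with library 69, and 1 of miR-34b-5p, so it had more counts of the minor members than of the major one.

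miR-34a-5p was higher in set B. In set A the lowest level was 0, the median 5.07 and the highest 25.3 per 10000 counts, and in set B these were 5.59, 14.7 and 37.99. The sets overlapped: 3 of the 58 set A libraries reached the median of set B, but 0 of the 27 set B libraries were at or below the median of set A, and the 31 lowest hearts were all in set A. Mean log2 CPM (log2 of the counts relative to the library size, TMM-normalized, prior count 2) was 9.53 ± 0.89 (SD, n = 58) over the libraries of set A. For set B it was 10.69 ± 0.72 (SD, n = 27). The difference was 1.17 (two-sided permutation test of 100000 resamples, p = 1e-05, the smallest they can give). The scale itself moved, since the median difference over the 146 rows with at least 85 counts was 0.25, and relative to it miR-34a-5p was higher by 0.92. By size of the rise in set B it was 14th of the 146 rows, and 89 of the 146 were higher there. The share of the 146 rows that would pass the same permutation test was not worked out, so passing it does not set miR-34a-5p apart. The sets were found from other rows of these same libraries, so the test describes the sets and not a condition.

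**Figure D2:**
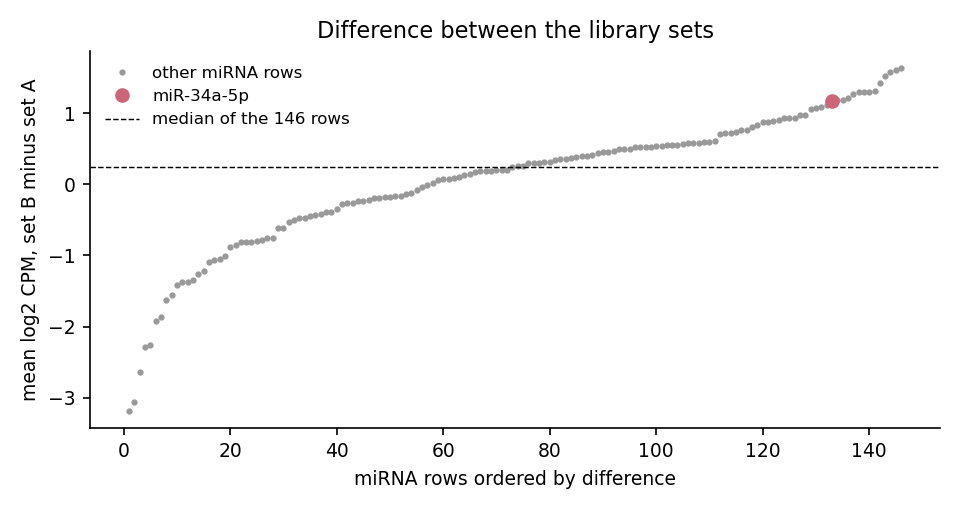
Difference in mean log2 CPM between the library sets (set B minus set A, vertical axis) for the 146 rows with at least 85 counts, in order of size (horizontal axis). The coloured point is miR-34a-5p at 1.17 and the dashed line is the median of the rows at 0.25; miR-34a-5p is among the rows highest in set B but 13 rows lie above it.

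The level also varied along the library numbers within set A. The 5 set A libraries that are numbered among the first set B libraries, 11 to 14 and 19, had a pooled level of 17.1 per 10000 (10.3 to 25.3 over the libraries, 73 counts). That is near the 17.8 of libraries 1 to 10 and the 17.6 of libraries 15 to 18. The other 53 set A libraries had 5.69 (0 to 14.6 over the libraries), with 6.04 in libraries 22 to 48 and 5.43 in libraries 60 to 85. Set B libraries 49 to 59, which lie between those runs, had 19.02. These runs were compared after their values were seen and were not tested, and the linear trend within set A, given below, did not pass. Without the 5 libraries the difference between the sets was 1.28, and among libraries 22 to 85 alone it was 1.38 (p = 1e-05 in both, the same permutation test).

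The minor members gave few counts in either set, and no difference in their own levels between the sets was found. The pooled level of miR-34c-5p was 0.432 per 10000 in set A (36 counts) and 0.292 in set B (9 counts), a difference of -0.140 (p = 0.272, permutation of the libraries between sets). That of miR-34b-5p was 0.120 (10 counts) and 0.162 (5 counts), a difference of 0.0422 (p = 0.591, the same permutation test). Within set B the intervals of miR-34c-5p (0.154 to 0.555) and miR-34b-5p (0.0693 to 0.380) overlapped, so their order was not resolved there. miR-34a-5p went from 6.27 to 18.1 per 10000, a ratio of 2.89, on the same scale. The share of miR-34b-5p and miR-34c-5p together in the family was 8.08% in set A (46 of 569 counts) and lower, at 2.44% (14 of 573), in set B, a difference of -5.64 percentage points (p = 0.00316, two-sided permutation test). This comparison does not depend on the library total or its normalization, and it was added after the data were seen. Taken alone beside miR-34a-5p, miR-34c-5p gave a difference of -4.86 points (p = 0.00198) and miR-34b-5p one of -0.99 (p = 0.252). Among libraries 22 to 85 the difference was -6.10 points but no longer passed the threshold (p = 0.0591).

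**Figure D3:**
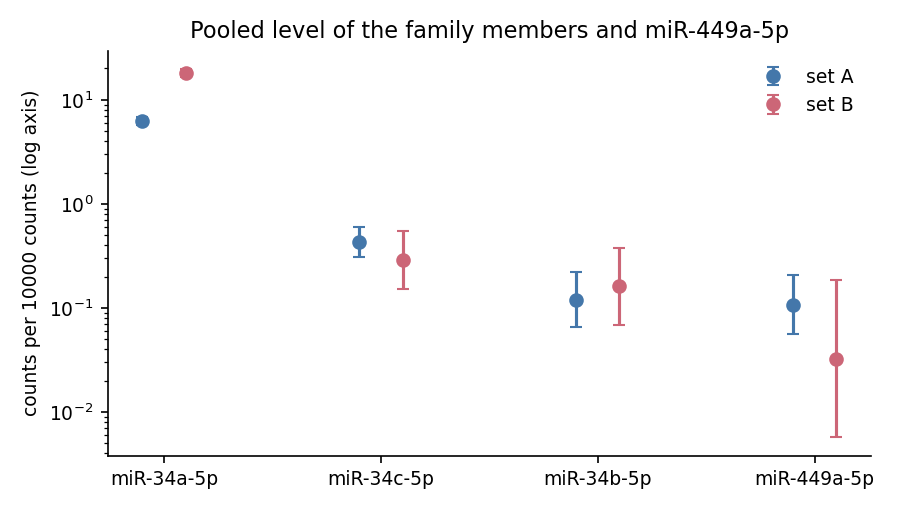
Pooled level of the 3 family members and of miR-449a-5p in counts per 10000 counts (vertical log axis), by library set. Points are pooled levels and bars are 95% Wilson intervals for counting error; the sets separate for miR-34a-5p (6.27 and 18.1) and overlap for the other 3 miRNAs.

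Cell type markers also stood at different levels in the sets, untested, and their part in the difference of miR-34a-5p was not tested. The 9 rows of miR-1 and miR-133, the muscle miRNAs that held 44.1% of all counts, took a median of 46.2% of a library in set A and 35.7% in set B. Their members went both ways in mean log2 CPM (set B minus set A): miR-1a-3p was at -0.85 and miR-1b-5p at -1.06, while miR-133a-3p was at 1.12 and miR-133b-3p at 0.60. The summed share of 3 leukocyte markers (all 3 counted) was 0.618% to 3.93% in set A (median 1.70%) and 0.331% to 0.981% in set B (median 0.520%). That lower sum came from miR-142a-3p alone, at -3.19, since miR-150-5p was at 1.59 and miR-223-3p at 0.91. The 2 fibroblast markers summed to a median of 0.735% (0.385 to 1.37) and 1.22% (0.865 to 1.90), and 1 of them, miR-214-3p, had only 6 counts. The 4 cardiomyocyte markers summed to 18.5% to 29.2% in set A and 17.6% to 24.2% in set B. The sum does not show that each marker was present in every library. Its members went apart, with miR-208a-3p at -2.64 and miR-133a-3p at 1.12. The ranges of the leukocyte, fibroblast and cardiomyocyte sums overlapped between the sets, and so did those of the other lists. These were endothelial (2 markers, medians 6.57% and 5.81%), smooth muscle (2, 4.01% and 4.05%), erythroid (3, 0.348% and 0.342%), hepatocyte (miR-122-5p, 0.0169% and 0.0372%) and neuronal (2, with miR-124-3p at 0 in every library, 0.0211% and 0.0347%). Near-equal sums again held members that went apart: miR-143-3p at -0.38 and miR-145a-5p at 1.32 in smooth muscle, and miR-144-3p at -1.63 and miR-486a-5p at 0.76 among the red cell markers. Of the 3 miR-449 markers of multiciliated epithelium, 2 were at 0 and the summed share never passed 0.00881%.

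The spread of miR-34a-5p was larger than counting error gives. Under a constant share, the dispersion ratio (chi-square divided by its degrees of freedom) of the 85 libraries was 9.41 (Benjamini-Hochberg adjusted p = 7.28e-115 over 146 rows), so counting accounted for 10.6% of the variance. Most rows passed this test, 125 of 146 or 85.6%, so passing it does not set miR-34a-5p apart. The coefficient of variation (CV) left after counting error was 0.813, 12th of the 146 rows, against a median of 0.420.

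Within a set the spread remained. In set A this ratio was 5.03 (adjusted p = 1.18e-31), where 93 of 146 rows (63.7%) passed, and the CV was 0.669, 7th of 146 rows against a median of 0.222. The 6 rows above it were miR-122b-3p, miR-122-5p, miR-204-5p, miR-135a-5p, miR-361-3p and miR-144-3p, of which miR-122-5p is the miRNA of hepatocytes and miR-144-3p one of red cells. Among the 47 rows with a mean count from 0.5 to 2 times its own, the median CV was 0.240 and only miR-144-3p, at 0.676, was above it. In set B the value was 5.36 (adjusted p = 9.55e-17), where 82 of 146 rows (56.2%) passed. There the CV was 0.459, 26th of 146 rows against a median of 0.238, and 7 of the 33 rows of similar count were above it. Leaving out libraries 11 to 14 and 19 lowered the CV in set A to 0.578, then 10th. Within their own set, 12 set A libraries lay wholly above the pooled level and 9 wholly below it, and in set B 6 lay above and 5 below. For the minor members the values were 0.898 for miR-34c-5p and 1.40 for miR-34b-5p, at mean expected counts of 0.529 and 0.176 per library, too few for this test.

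**Figure D4:**
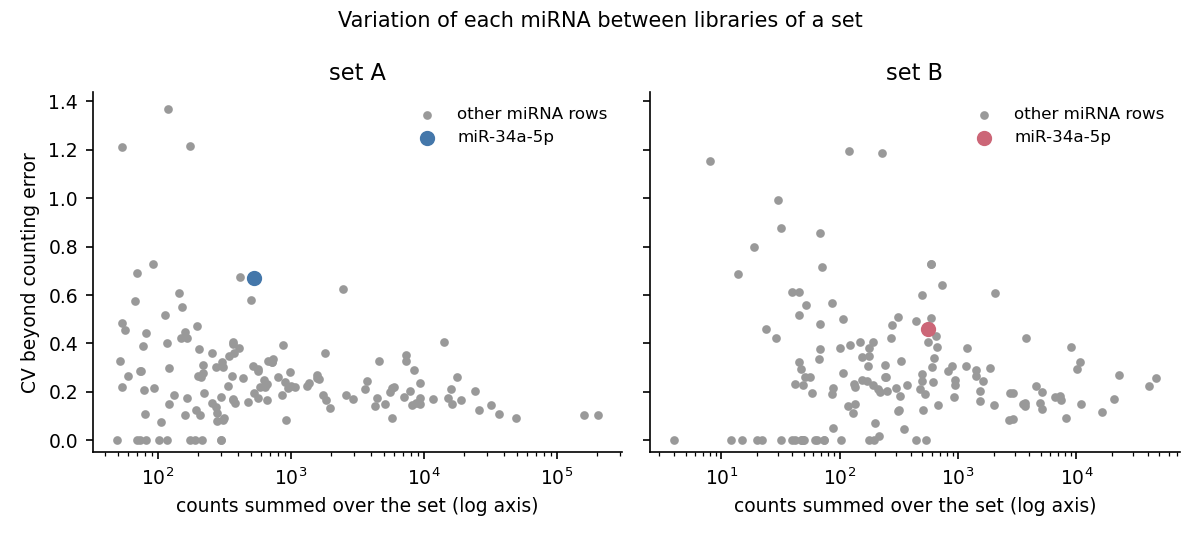
CV between libraries beyond counting error (vertical axis) against counts summed over the set (horizontal log axis) for 146 miRNA rows in set A (left) and set B (right). The coloured point is miR-34a-5p, at 0.669 in set A, above nearly all rows of similar count, and at 0.459 in set B.

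Because library number marks position and not treatment, its trend was read as a check. In edgeR's quasi-likelihood fit miR-34a-5p fell by 0.12 (log2, SE 0.05) per 10 libraries (adjusted p = 0.0217). Of the 146 rows 89 (61%) passed, 53 of them falling (36.3% of all, miR-34a-5p included) and 36 rising. The trend of miR-34a-5p did not pass within the sets. Within set A it was -0.07 (edgeR adjusted p = 0.354), and within set B 0.04 (edgeR adjusted p = 0.676). It was -0.03 with the set as a covariate (adjusted p = 0.654, edgeR). DESeq2 size factors gave -0.07 (adjusted p = 0.166).

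No relation of the level with library depth was found within a set. The correlation of miR-34a-5p log2 CPM with log2 total was r = -0.143 (permutation p = 0.286, adjusted 0.572) and rho = -0.0429 (p = 0.749, adjusted 0.969) in set A. In set B it was r = 0.0375 (p = 0.853, adjusted 0.853) and rho = 0.00794 (p = 0.969, adjusted 0.969). These were 2 relations. Without the 2 libraries whose totals lay farthest from the median, r was -0.0263 and 0.134.

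No other miRNA was found to follow miR-34a-5p. The sets stand apart on the first principal component, so correlations were computed within each set over 145 rows (Pearson's r of log2 CPM, two-sided permutation test of 100000 resamples). After Benjamini-Hochberg adjustment 0 of 145 rows passed in set A (0%) and 0 of 145 in set B (0%). At an unadjusted p under 0.05 set A had 7 rows and set B had 9, and with Spearman's rho 2 and 9, with 0 past the adjusted threshold. In set A r ran from -0.268 (miR-142b) to 0.318 (miR-146a-5p), and in set B from -0.504 (miR-142b) to 0.578 (miR-143-5p). Adjusted p went no lower than 0.832 in set A and 0.251 for set B. On the scale of the counts, counting error made up 19.9% and 18.7% of the variance of miR-34a-5p in the sets. That share was not worked out for log2 CPM, on which r was computed. A relation with a scarce row could still be missed. So could a strong one in set B, where r of 0.578 over 27 libraries had an adjusted permutation p of 0.251.

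The 5 rows with the highest mean of the 2 values of r were miR-143-5p (0.132 in set A, 0.578 in set B), miR-30a-3p (0.268 and 0.441), miR-9b-3p (0.134 and 0.449), miR-22-5p (0.118 and 0.426) and miR-342-3p (0.173 and 0.354). Their Spearman's rho was 0.0859 to 0.255 in set A and 0.341 to 0.467 in set B. The largest of these, miR-143-5p in set B, had p = 0.00173, adjusted 0.251, by permutation. Without libraries 3 and 56, the farthest from the median of miR-34a-5p in set B, it was 0.509, while in set A, without libraries 34 and 66, the r of miR-143-5p was -0.00604. miR-30a-3p kept its sign in both sets, at 0.137 and 0.619 without those libraries.

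The 5 lowest were miR-142b (-0.268 in set A, -0.504 in set B), miR-29b-3p (-0.246 and -0.313), miR-1a-1-5p (-0.226 and -0.305), miR-142a-5p (-0.224 and -0.293) and miR-350-3p (-0.0810 and -0.412). Their rho was -0.255 to -0.0789 in set A and -0.558 to -0.233 in set B. miR-142b in set B had p = 0.00689, adjusted 0.5, by permutation, and its r was -0.428 without libraries 3 and 56. miR-142b and miR-142a-5p come from opposite strands of one locus, and miR-142 is a miRNA of blood cells. The strand setting is not stated, and whether reads of one strand were counted for a row of the other was not tested. Rows of related name were taken as separate rows throughout, so they may not be independent. Examples are miR-122b-3p beside miR-122-5p, and miR-1b-5p (251291 counts) beside miR-1a-3p (202280 counts). miR-29b-3p represses collagen genes. Mature sequences were found for 9 of these 10 rows, and 0 of the 9 share the seed of miR-34a-5p.

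**Figure D5:**
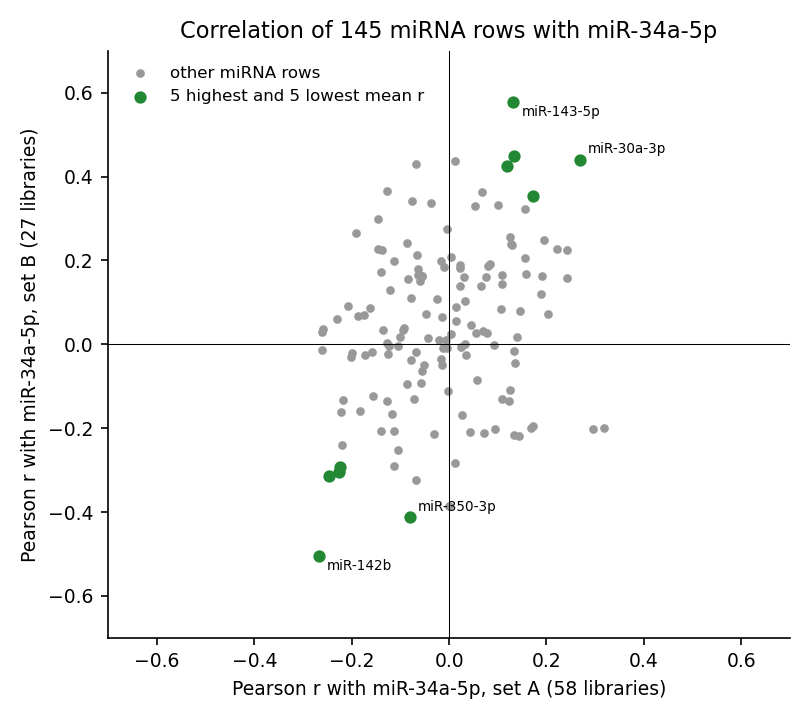
Pearson's r with miR-34a-5p in set A (horizontal axis) and set B (vertical axis) for 145 miRNA rows, each point a row. The 10 coloured rows have the 5 highest and 5 lowest means of the 2 values, from miR-142b (-0.268 and -0.504) to miR-143-5p (0.132 and 0.578), and 0 of the 145 passed the adjusted threshold in either set.

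Of the other miRNAs that p53 is known to raise or to help process, none of those tested was called with miR-34a-5p. Of 8 on the list, 7 had enough counts (miR-215-5p had 20 in all), and 0 passed in either set. In set A 5 of 7 had a positive r, with a median of 0.0232 and a range from -0.262 (miR-143-3p) to 0.0840 (miR-194-5p), beside a median of -0.0141 over all 145 rows, of which 66 were positive. In set B 5 of 7 were positive, with a median of 0.161 and a range from -0.387 (miR-16-5p, which slows the cell cycle) to 0.363 (miR-145a-5p, of smooth muscle), beside a median of 0.0350 over all rows, of which 86 were positive. Between the sets, 4 of the 7 were higher in set B, beside 88 of the 145 rows. Their median log2 difference was 0.09 against 0.24 over the 145 rows, beside 1.17 for miR-34a-5p. The highest member of the list there was miR-145a-5p at 1.32.

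The miRNAs of cardiac stress, hypertrophy and fibrosis gave the same count. Of 12 listed, 8 were tested, since miR-208b-3p (74 counts), miR-132-3p (63), miR-214-3p (6) and miR-212-3p (1) were too scarce, and 0 of 8 passed in either set. In set A 2 of 8 were positive, from -0.246 (miR-29b-3p) to 0.318 (miR-146a-5p, a brake on inflammatory signalling), with a median of -0.0864. In set B 3 of 8 were positive, from -0.313 (miR-29b-3p) to 0.172 (miR-21a-5p, abundant in fibroblasts of stressed hearts), with a median of -0.0566. Between the sets 3 of 8 were higher in set B, beside 88 of the 145 rows. The median log2 difference was -0.49, against 0.24 over the 145 rows.

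The summed markers of the cell types were also set beside miR-34a-5p within each set, as a description over libraries that share their depth and normalization. In set A r ran from -0.248 (smooth muscle) to 0.118 (endothelial), with -0.0165 for cardiomyocytes. In set B it ran from -0.163 (fibroblast) to 0.540 (neuronal), with 0.218 for cardiomyocytes, and the neuronal value rested on miR-9-5p alone. The minor members had too few counts to be set against miR-34a-5p. For miR-34c-5p r was -0.134 in set A (36 counts) and 0.238 in set B (9 counts), and for miR-34b-5p -0.162 and -0.0419 (10 and 5 counts), with adjusted p between 0.883 and 0.986 by permutation.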

How the data were processed

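Total RNA of 85 hearts was extracted with a miRNeasy kit and made into QIAseq miRNA libraries. The deposited table holds raw counts, 1 row per mature miRNA, which the authors made with hisat2 (HISAT2 2.0.6) and htseq-count (HTSeq 0.13.5) on mm10, per the submitters' processing notes. The miRNA annotation, trimming, strand setting and use of molecular identifiers are not given in the sources used here. Reads that fit near-identical miRNAs may be split, lost or counted in more than 1 row. The rows of miR-486a-5p and miR-486b-5p held the same total of 1322 counts.

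All libraries formed 1 group. Shares are of library totals, with 95% Wilson intervals, and a count of 0 allows up to 3 counts. TMM factors came from the 51 rows kept by filterByExpr (minimum count of 10 in at least 63 libraries, total of at least 15), which leaves out miR-34a-5p. Rows with at least 85 counts (146 of 548 with any count) were tested, by chi-square for dispersion, by edgeR 4.0.16 glmQLFTest (R 4.3.3) for the trend, and by permutation of 100000 resamples otherwise, and p-values were adjusted by Benjamini-Hochberg (threshold 0.05). The tests were checked on simulated data. Python 3.11.15, numpy 2.4.6, pandas 2.3.3, scipy 1.17.1 and matplotlib 3.10.9 were used, and DESeq2 1.42.0 for alternatives.

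The members, lists and tests were chosen with earlier results of these data known. Named rows are the members, their 3p arms, rows sharing the seed, the 5 highest and 5 lowest by mean r, list members, and the 5 hearts highest and lowest in miR-34a-5p. Other rows and libraries named were chosen after their values were seen. RefSeq held a mature sequence for 1678 of the 1977 rows.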

Additional observations from a re-analysis of the deposited data

How the results depend on the processing

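Of 62 values of the main results under other settings, 55 were scored as the same. For tested values this meant the same direction and side of the threshold. Counts of correlated rows and abundances have neither. For the former it meant the same count of 0, and for abundance a change smaller than the SD between libraries. The trend with library number did not: per 10 libraries it was -0.0728 log2 with DESeq2 size factors, -0.0894 with TMM factors from all rows, -0.0263 with the set as a covariate and -0.0748 within set A, all no longer past the threshold, and it turned to 0.0416 within set B. With filterByExpr rows only it was not run, since miR-34a-5p is not among them. The fall in the share of the minor members was -6.10 points among libraries 22 to 85 and -0.99 points for miR-34b-5p alone, both without passing. The difference of miR-34a-5p between the sets ranged from 0.95 (TMM from all rows) to 1.39 (prior count 0.5) and passed under each setting tried. Without libraries 11 to 14 and 19, and in the other settings, 0 rows were correlated in either set. Of 212 values of single miRNAs, 1 changed sign: r of miR-143-5p in set A was -0.00604 without libraries 34 and 66. Without the miR-1 and miR-133 rows the pooled share of miR-34a-5p was 0.169% in place of 0.0947%, which is 1.79 times as high. The increase of 0.0746 percentage points was less than the SD of 0.0845 between libraries. Leaving out libraries 2 and 22, 1 of each close pair, was added after the data were seen and ended or turned none of the 6 main results recomputed.

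No paired analysis was possible because there is 1 group. Depth limits the minor members most: a median library of 12248 counts cannot show a level much under 3 counts. Strain, heart weight and batch per library were not used here.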
